A study of Mus musculus with 4 samples.

Results

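Primed epiblast markers are genes that are switched on when the naive epiblast of the implanting mouse embryo moves towards the postimplantation, lineage-ready state. The 8 genes followed here were Otx2, Pou3f1, Sall2, Fgf5, Zic2, Foxd3, Cdh2 and Sox3. They were found as the array probes whose accession is a RefSeq transcript of one of these genes, which gave 8 probes, 1 for each gene, of the 41174 probes on the array. Of the genes on the array, 17008 could be named in this way. The values of the members were compared between FBL knock-down and control mouse embryonic stem (ES) cells.

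The cells are mouse ES cells in which FBL can be knocked down under the control of tetracycline (Tc). FBL (fibrillarin) is a methyltransferase of the nucleolus that modifies ribosomal RNA at positions set by small nucleolar RNAs. The FBL knock-down group (2 samples) was kept without Tc for 2 days, and the control group (2 samples) was kept with Tc at 1000 ng/mL for 2 days. All 4 samples carried the inducible system and grew on gelatin-coated dishes with leukaemia inhibitory factor (LIF). The removal of Tc and the loss of FBL therefore cannot be told apart. The labels give neither the promoter of the system nor the clone, and they do not say that samples of a group were separate cultures, so the p-values rest on a spread that may be technical.

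In the mouse embryo, FGF signalling through ERK drives cells out of the naive state. In cultured mouse ES cells that state is held by LIF and a network of transcription factors. The homeodomain factor OTX2 and the POU factor OCT6, encoded by Pou3f1, are active in the early postimplantation epiblast, where OTX2 directs OCT4 to new enhancers. Fgf5 is the classical transcript of that tissue, and several of the other members are also used later in the neural plate.

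The start regions of 4 members that passed the test below are shown, so that 3 members that rose (Otx2, Sall2 and Fgf5) can be set beside 1 that fell (Foxd3). RefSeq windows of these 4 of the 8 members were used. Pou3f1 and Zic2, which also passed, and Sox3 had no window in the reference used, and Cdh2 was not searched. The layout and the absence of a motif therefore say nothing about those members. Each line is a window of RefSeq build GRCm38.p6, 5′ to 3′ on the strand of the gene, with 250 bases before and 50 bases after an annotated start. The capitals mark matches, on either strand, to 5 short motifs that do not overlap each other in these windows: GGATTA for the OTX family, ATGCAAA for the POU family, ACAAAG for the SOX family, TGTTTAC for the FOX family and TATAAA for the TATA box. Where a gene has several annotated starts (4 for Otx2, 2 for Sall2), 1 window is shown, for Otx2 the only one with an OTX match and for Sall2 the one with more CpG (10 against 1).
Otx2, chr14:48665060-48665359, minus strand: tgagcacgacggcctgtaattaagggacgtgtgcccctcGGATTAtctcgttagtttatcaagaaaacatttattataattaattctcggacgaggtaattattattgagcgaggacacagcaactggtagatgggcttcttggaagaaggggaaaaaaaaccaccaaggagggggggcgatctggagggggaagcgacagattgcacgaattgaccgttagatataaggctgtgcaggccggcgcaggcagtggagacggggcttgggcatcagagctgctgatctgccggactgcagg
Sall2, chr14:52316274-52316573, minus strand: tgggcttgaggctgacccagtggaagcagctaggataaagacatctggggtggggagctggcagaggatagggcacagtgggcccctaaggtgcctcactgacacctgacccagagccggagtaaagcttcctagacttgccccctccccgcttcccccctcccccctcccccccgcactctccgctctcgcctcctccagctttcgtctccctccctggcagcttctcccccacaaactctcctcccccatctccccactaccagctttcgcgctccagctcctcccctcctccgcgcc
Fgf5, chr5:98253934-98254233, plus strand: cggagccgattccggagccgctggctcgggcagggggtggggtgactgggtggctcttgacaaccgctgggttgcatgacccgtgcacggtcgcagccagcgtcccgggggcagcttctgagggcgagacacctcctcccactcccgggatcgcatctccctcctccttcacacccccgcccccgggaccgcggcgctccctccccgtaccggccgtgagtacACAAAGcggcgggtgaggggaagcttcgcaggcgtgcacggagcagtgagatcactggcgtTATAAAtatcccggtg
Foxd3, chr4:99656049-99656348, plus strand: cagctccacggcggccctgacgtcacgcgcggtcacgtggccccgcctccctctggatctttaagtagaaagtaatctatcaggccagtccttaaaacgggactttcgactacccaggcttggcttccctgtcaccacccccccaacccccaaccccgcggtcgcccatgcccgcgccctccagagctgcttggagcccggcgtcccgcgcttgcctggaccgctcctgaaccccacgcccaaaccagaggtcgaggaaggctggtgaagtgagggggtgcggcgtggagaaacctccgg
The Otx2 window held 1 match to the OTX motif, which 7.06% of all 32851 windows of this length held; as the window was picked for that match from 4, nothing is read from this share. The Fgf5 window held 1 match to the SOX motif and 1 to the TATA box, which occurred in 18.7% and 13.6% of all windows. Its TATA box match began 34 bases after the annotated start. The Sall2 and Foxd3 windows shown held no match to any of the 5 motifs. The other Sall2 window and 1 of the other Otx2 windows held a TATA box match, at offsets of −145 and −192 from their annotated starts. The POU motif (4.63% of all windows) and the FOX motif (3.65%) occurred in none of the windows of these 4 genes. The windows of Fgf5 and Foxd3 were rich in CpG, with 29 and 25 CpG and a GC content of 68.3% and 65.7%, against medians of 7 CpG and 52.7% over all windows. Fgf5 rose and Foxd3 fell, as described next. A motif match is a description of letters and not evidence of binding.

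Each probe value is a log2 signal after subtraction of the 75th percentile of its array. Per array, 24478 to 26385 probes stood well above background, and no non-control spot was saturated. Fbl itself fell 5.32-fold, with values of 5.98 and 5.94 in FBL knock-down samples 1 and 2, against 8.63 and 8.12 in controls 1 and 2 (log2 change −2.41 ± 0.25 SE, limma adjusted p = 0.000442). Among 11 markers of ES cells, 10 were tested, all 10 were well above background on all arrays, and 0 passed the test in limma (3 had an unadjusted p under 0.05, all lower), with a median log2 change of −0.28. The brightest were Dppa5a (0.24, adjusted p = 0.693) and Zfp42 (−0.61, adjusted p = 0.183). Both FBL knock-down arrays lay at position 4 of their slides and the controls at positions 1 and 2, so array position and group cannot be told apart. FBL knock-down sample 2 was alone on the second slide. Across tested probes, the difference between the 2 samples of a group had a standard deviation of 0.313 for FBL knock-down and 0.509 for controls.

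The markers did not move as 1 group. Otx2, Pou3f1 and Sall2 rose in FBL knock-down cells, by 2.88-fold to 3.23-fold. Fgf5 also rose (2.49-fold), but it reached the test through the FBL knock-down arrays alone, as 1 control was not well above background. Zic2 and Foxd3 fell, by 4.63-fold and 1.88-fold. Cdh2 did not pass the test, and Sox3 was too dim to be tested. To be tested, a probe had to stand well above background in both samples of 1 group or the other, which held for 7 of the 8 members and for 25077 probes in all. Of all probes tested, 3.73% rose and 2.47% fell at an adjusted p under 0.05 in limma, and the median log2 change was −0.06. The members' calls are set beside these shares. The members were chosen with earlier results of these data known, so no excess over the shares is read as a result. With 2 arrays per group an exact permutation test on 1 probe cannot give a two-sided p below 0.333. The groups did not overlap in 7 of 7 tested members, nor in 51.4% of all probes tested, and for Cdh2 the nearest pair was equal to 2 decimals. Where a fit leaves out 1 sample, the spread comes from the other group alone, which is the wider one for controls, so the p-values of such fits follow which group was left whole and are no independent support. In these bulk samples, fewer cells with a transcript and less of it per cell cannot be told apart.

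**Figure D1:**
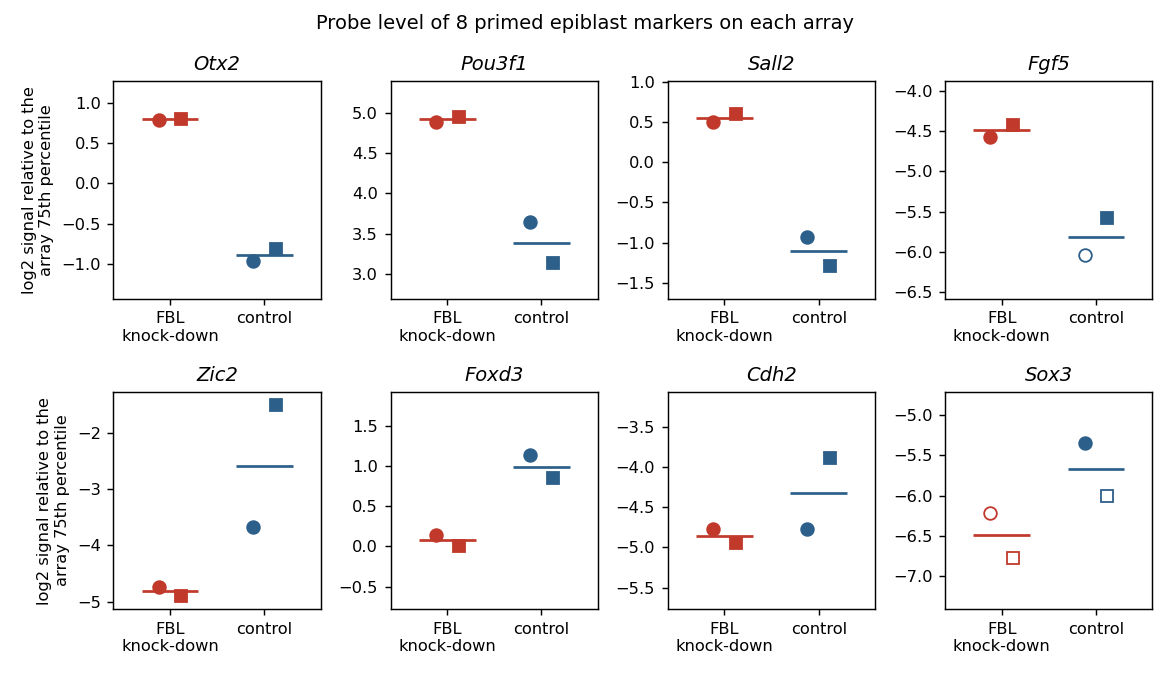
Each panel shows 1 member, with FBL knock-down samples (red) left of controls (blue), the log2 signal relative to the array's 75th percentile on the vertical axis, circles for replicate 1, squares for replicate 2, bars for group means and open symbols for values not well above background. The members of the upper row are higher on both FBL knock-down arrays than on both control arrays, and Zic2 in control 2 stands at −1.52, far above its other values.

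Otx2 (probe A_52_P49080, transcript NM_144841) encodes a homeodomain transcription factor that is needed in the mouse for the anterior epiblast and the head. Its level was 0.79 and 0.80 in FBL knock-down samples 1 and 2, against −0.96 and −0.82 in controls 1 and 2. The groups did not overlap, and the values within each group lay within 0.14 of each other. The log2 change was 1.69 ± 0.22 (SE, n = 2 per group), or 3.23-fold, with a limma adjusted p of 0.00164. Otx2 was the only member printed on the array more than once, in 10 spots. Its 10 processed signals ran from 1000 to 1200 and from 794 to 938 in FBL knock-down samples 1 and 2, against 266 to 300 and 393 to 481 in controls 1 and 2. The lowest FBL knock-down spot stood at 0.66 on the log2 scale, against −0.74 for the highest control spot, and the SD over the 10 spots of an array was 0.055 to 0.092. Spots of 1 array share 1 RNA sample, so this spread is that of the measurement and not of the cells.

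Sall2 (probe A_51_P137094, transcript NM_015772) encodes a zinc finger transcription factor of the SALL family. Its level was 0.50 and 0.60 in FBL knock-down samples 1 and 2, against −0.93 and −1.29 in controls 1 and 2. The change of 1.65 ± 0.24 (3.15-fold, adjusted p = 0.00256) was about as large as that of Otx2. Pou3f1 (probe A_51_P511270, transcript NM_011141) encodes OCT6. It read 4.89 and 4.95 in FBL knock-down samples 1 and 2, against 3.64 and 3.14 in controls 1 and 2. Its processed signals, 18713 and 15429 in FBL knock-down samples against 6964 and 7038 in controls, lay far above background. The log2 change was 1.53 ± 0.25 (2.88-fold, adjusted p = 0.00522). The gap between the controls, 0.50, was smaller than the smallest difference between a FBL knock-down and a control sample, 1.25.

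Fgf5 (probe A_52_P569375, transcript NM_010203) encodes a secreted fibroblast growth factor and was the dimmest of the members that rose. Its level was −4.57 and −4.42 in FBL knock-down samples 1 and 2, against −6.04 and −5.58 in controls 1 and 2. Its processed signals were 26.7 and 23.4 in FBL knock-down samples, against 8.51 and 16.8 in controls, and control 1 was not well above background. Fgf5 therefore entered the test through the FBL knock-down arrays alone, and its fold rests in part on a control value near background. The log2 change was 1.31 ± 0.25 (2.49-fold, adjusted p = 0.0113). With normexp background correction, which damps dim probes, it was 0.32 (adjusted p = 0.57). The call also ended without FBL knock-down sample 1 (1.39, adjusted p = 0.0512) and without FBL knock-down sample 2 (1.24, adjusted p = 0.149).

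Zic2 and Foxd3 went the other way. Zic2 (probe A_51_P364592, transcript NM_009574) encodes a zinc finger transcription factor of the epiblast and the neural plate. Its level was −4.73 and −4.89 in FBL knock-down samples 1 and 2, against −3.68 and −1.52 in controls 1 and 2. The processed signals were 23.8 and 16.8 in FBL knock-down samples, against 43.5 and 278 in controls. The FBL knock-down values lay close together and below both controls, but the controls lay 2.16 apart, a gap larger than that of 99.6% of tested probes. The log2 change was −2.21 ± 0.53 (adjusted p = 0.0366), and it was −1.13 without control 2 (adjusted p = 0.0241) and −3.29 without control 1 (adjusted p = 0.00778). With normexp it was −0.82 (adjusted p = 0.0141). Zic2 did not pass after quantile normalization (−2.16, adjusted p = 0.121), after scaling to the percentile of bright probes (−2.16, 0.0931), under trend and robust (−2.21, 0.382) or in the absence of a filter on dim probes (−2.21, 0.402). The direction was the same on every array pair, while the size of the fall rested on control 2.

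Foxd3 (probe A_51_P286423, transcript NM_010425) encodes a forkhead repressor that mouse ES cells need for self-renewal. Its level was 0.14 and 0.01 in FBL knock-down samples 1 and 2, against 1.13 and 0.85 in controls 1 and 2. The groups did not overlap, and the processed signals were 697 and 505 in FBL knock-down samples, against 1222 and 1440 in controls. The log2 change was −0.91 ± 0.23 (adjusted p = 0.0459), just under the threshold. The call ended without FBL knock-down sample 1 (−0.98, adjusted p = 0.358), without FBL knock-down sample 2 (−0.85, adjusted p = 0.708), with quantile normalization (−0.89, 0.0555) and with the percentile taken over bright probes (−0.86, 0.0532), while the change stayed between −1.05 and −0.74 in all 16 alternatives.

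Cdh2 (probe A_51_P262773, transcript NM_007664) encodes N-cadherin, the cadherin that replaces E-cadherin when epithelial cells of the embryo become mesenchymal or neural. Its level was −4.77 and −4.95 in FBL knock-down samples 1 and 2, against −4.77 and −3.89 in controls 1 and 2. FBL knock-down sample 1 and control 1 had the same value to 2 decimals, and control 2 stood above the others, as it did for Zic2. The log2 change was −0.53 ± 0.30 (adjusted p = 0.364), with a 95% interval of −1.19 to 0.13. It was −0.10 without control 2 (adjusted p = 0.66) and −0.97 without control 1 (adjusted p = 0.0278). Cdh1, which encodes E-cadherin, had a change of 0.11 ± 0.22 (adjusted p = 0.838) and was chosen for mention after its value was seen.

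Sox3 (probe A_51_P468544, transcript NM_009237), an X-linked gene, encodes a SOXB1 transcription factor close to SOX2. Its level was −6.22 and −6.77 in FBL knock-down samples 1 and 2, against −5.35 and −6.00 in controls 1 and 2. It was not well above background in either FBL knock-down sample and was so in 1 of the 2 controls, so it was not tested. With values this close to background no fold is given. Without a filter on dim probes its change was −0.82 ± 0.36 (adjusted p = 0.583).

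**Figure D2:**
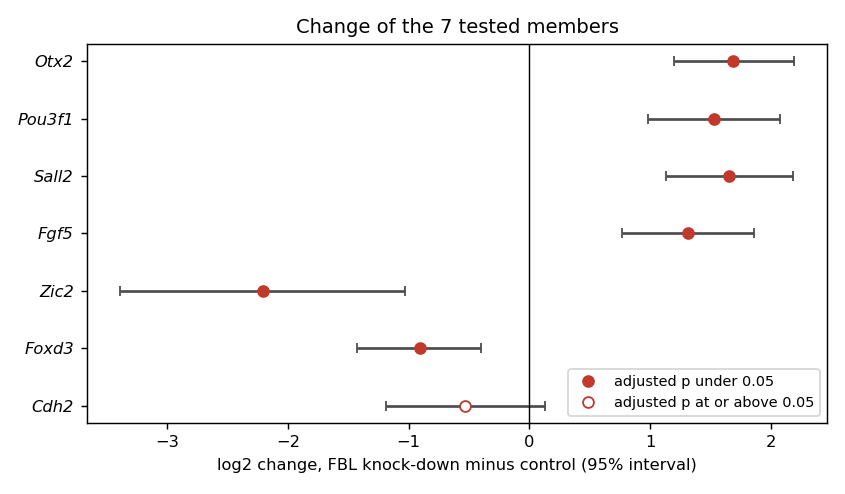
The points are log2 changes (FBL knock-down minus control) of the 7 tested members with 95% intervals from limma, filled where the adjusted p is under 0.05. Otx2, Sall2, Pou3f1 and Fgf5 lie between 1.31 and 1.69, and the interval of Zic2, −3.39 to −1.03, is the widest.

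**Figure D3:**
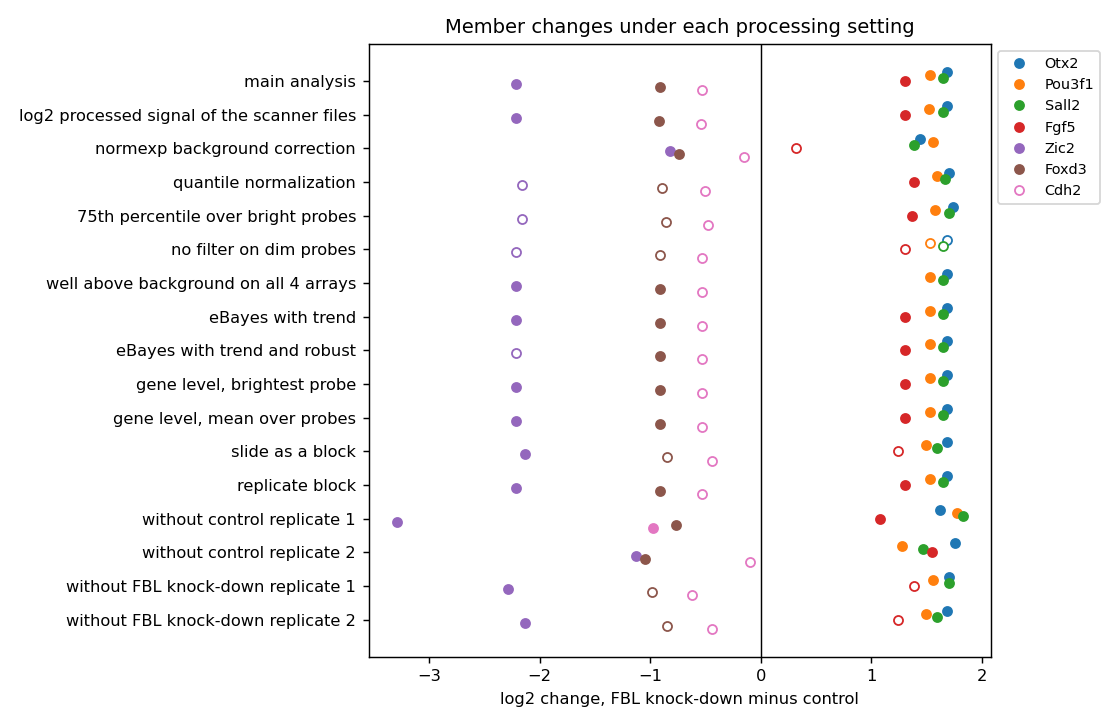
Each row is a processing setting and each colour a member, with the log2 change (FBL knock-down minus control) on the horizontal axis and filled points where the adjusted p is under 0.05. Otx2, Pou3f1 and Sall2 stay between 1.28 and 1.83 in every row, while Fgf5 moves to 0.32 and Zic2 to −0.82 with normexp.

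The genes whose values over the 4 arrays lay nearest to those of a member, by root mean square distance after centring on the mean of each gene, were Map3k20 for Otx2 (distance 0.0389), Obsl1 for Pou3f1 (0.0146), Ntm for Sall2 (0.0237), Polk for Fgf5 (0.0372), Lgals3 for Foxd3 (0.0368) and Aqp6 for Zic2 (0.217). The log2 changes of the first 4 were 1.63, 1.52, 1.62 and 1.30, and as means over all probes of a gene 0.94 for Map3k20, 1.01 for Obsl1, 1.57 for Ntm and 1.02 for Polk, which then did not pass (adjusted p = 0.0974). Aqp6 read −6.01 and −6.55 in FBL knock-down samples 1 and 2, against −5.17 and −3.39 in controls 1 and 2, and like Zic2 it lay highest in control 2. Over 4 arrays such likeness describes these samples only.

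Gene lists around the members were read at the brightest probe of each gene. Of 19338 genes tested in this way, 3.92% rose and 2.58% fell, with a median log2 change of −0.06. Of 14 tested genes among 16 other primed or formative epiblast genes, 2 rose and 0 fell in limma (6 and 1 at an unadjusted p under 0.05), and the median was 0.06. Wnt8a, a ligand of the Wnt pathway expressed in the posterior epiblast, read −0.86 and −0.66 in FBL knock-down samples 1 and 2, against −5.14 and −5.86 in controls 1 and 2, of which 1 was well above background. It entered the test through the FBL knock-down arrays alone. Its fitted log2 change was 4.74 ± 0.28 (adjusted p = 5.6e-05), and it was 2.19 with normexp. Lef1, the transcription factor that answers Wnt signals, rose by 1.15 ± 0.22 (adjusted p = 0.013), a call that ended without FBL knock-down sample 1 (1.20, adjusted p = 0.139) or 2 (1.11, adjusted p = 0.277). The de novo DNA methyltransferase gene Dnmt3b, which accompanies the primed state, had a change of −0.35 (adjusted p = 0.453), and Dnmt3a one of 0.75 (adjusted p = 0.0971, and 0.14 and 0.18 at its other probes); both were chosen for mention after their values were seen.

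Of 14 tested naive pluripotency genes, 0 rose and 4 fell in limma (0 and 8 at an unadjusted p under 0.05), with a median of −0.66. Nr0b1, the orphan nuclear receptor DAX1, read 4.25 and 4.15 in FBL knock-down samples 1 and 2, against 5.36 and 5.36 in controls 1 and 2. It fell 2.24-fold (−1.16 ± 0.22, adjusted p = 0.0125). Tfcp2l1, a transcription factor downstream of LIF, fell by 0.95 on the log2 scale (adjusted p = 0.0403), with changes of −0.57 and −1.21 at its other probes. With quantile normalization, and with the percentile over bright probes, 1 of the 14 fell, in both cases Nr0b1. The change of Nr0b1 was −1.21 and −1.11 without FBL knock-down samples 1 and 2 (SE 0.45, adjusted p = 0.131 and 0.273), and −1.16 without either control (SE 0.13). In these fits 0 genes of the list passed without either FBL knock-down sample, and 7 without either control.

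Among 16 tested genes of FGF and ERK signalling, 2 rose and 0 fell in limma (2 and 0 at an unadjusted p under 0.05), and the median was −0.16. Both are receptors: Fgfr4 rose by 1.16 ± 0.25 (adjusted p = 0.0209) and Fgfr2 by 1.02 ± 0.22 (adjusted p = 0.0228, with 1.25 and 0.34 at its other probes). The feedback phosphatase gene Dusp6 (−0.35), the immediate early gene Egr1 (−0.49) and the Sprouty gene Spry4 (−0.40), outputs of ERK chosen for mention after their values were seen, did not pass (adjusted p = 0.448, 0.262 and 0.352). Other such genes of the list, also named after their values were seen, did not pass either. They were Spred1 (−0.46), Spry1 (−0.40), Etv5 (−0.16), Etv4 (−0.11), Spry2 (−0.11) and, in the other direction, Dusp4 (0.39). Without FBL knock-down samples 1 and 2 the changes were 1.18 and 1.15 for Fgfr4 and 1.04 and 1.01 for Fgfr2, with an SE of 0.45, and the calls ended (adjusted p = 0.152 to 0.419). That of Fgfr2 also ended with normexp (0.64, adjusted p = 0.1).

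Among relatives of the members by protein family, 4 of 15 tested genes rose and 0 fell in limma (4 and 0 at an unadjusted p under 0.05), with a median of 0.02. For 2 of the 4, Foxd4 and Otx1, neither control stood well above background, so they entered the test through the FBL knock-down arrays alone, and the count was 2 among probes above background on all 4 arrays, 2 with normexp and 1 without FBL knock-down sample 1. Otx1 was named after its values were seen. Foxd4, a forkhead gene, rose by a fitted 3.33 ± 0.25 (adjusted p = 0.000148), against control values not well above background. The rise was 4.28-fold with each control set to the lowest value well above background on its array. That value is not a detection limit, so no least fold is given. With normexp the change of Foxd4 was 0.63 (adjusted p = 0.102). Pou3f3, a POU gene of the nervous system, read −1.47 and −1.65 in FBL knock-down samples 1 and 2, against −2.64 and −3.30 in controls 1 and 2, a rise of 1.41 ± 0.27 (adjusted p = 0.0122) that did not pass without FBL knock-down sample 1 (1.32, adjusted p = 0.074). Cdh3, P-cadherin, rose by 1.39 ± 0.23 (adjusted p = 0.0063), with 1.34 and 1.43 without FBL knock-down samples 1 and 2 (adjusted p = 0.0674 and 0.0514). It was also the only 1 of 14 tested cadherin and adhesion genes to pass, and the median of that list was 0.03. Of 10 tested neural genes, 1 rose and 0 fell in limma (1 and 2 at an unadjusted p under 0.05), with a median of −0.01. It was Neurod1, a transcription factor of differentiating neurons, at −1.96 and −1.65 in FBL knock-down samples 1 and 2, against −4.84 and −4.18 in controls 1 and 2 (2.71 ± 0.27, adjusted p = 0.00042, and 1.05 with normexp).

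**Figure D4:**
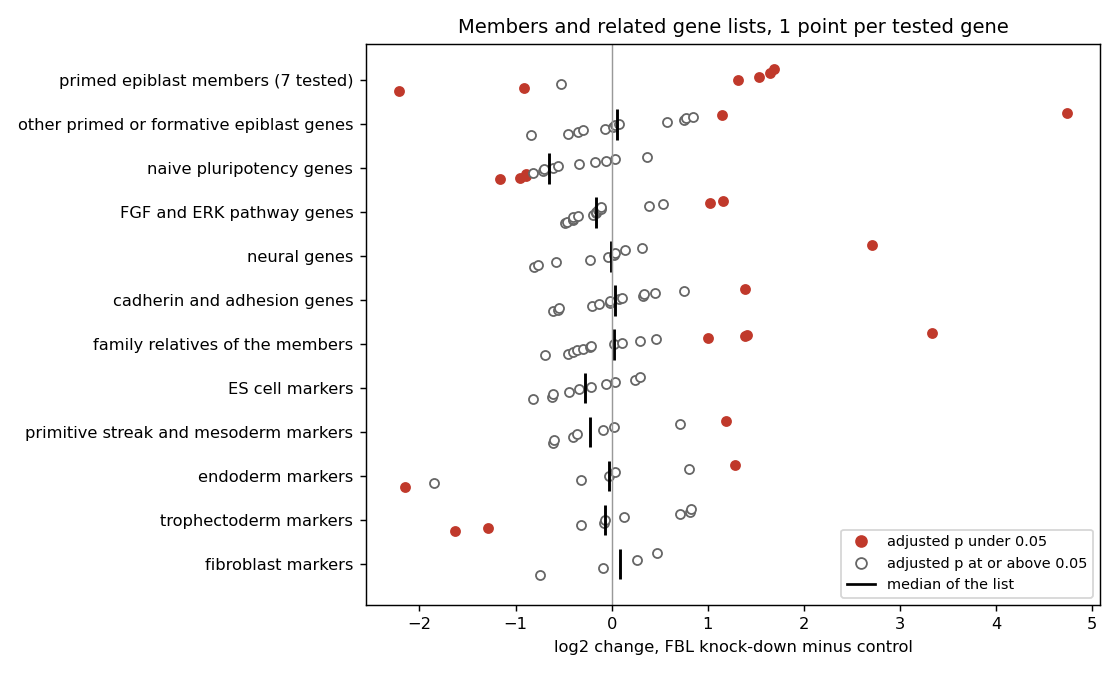
Each point is the log2 change (FBL knock-down minus control) of 1 tested gene at its brightest probe, red where the adjusted p is under 0.05, with a bar at the median of each list. The members spread to both sides of 0, and the naive list has its median at −0.66. The point of Foxd4 at 3.33 is a fitted value against controls not well above background, as is that of Otx1. For Wnt8a at 4.74, only 1 control was well above background.

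Of 37 entries in 4 lists of markers of other cell types, 28 were tested. Of these, 2 rose and 3 fell, beside the shares of 3.92% and 2.58% over all genes. Hand1 stands in 2 of the lists and is counted in each. Of 8 tested primitive streak and mesoderm markers, 1 rose and 0 fell in limma (2 and 2 at an unadjusted p under 0.05), with a median of −0.22. It was Kdr, a VEGF receptor (1.19, adjusted p = 0.0113), whose call ended without FBL knock-down sample 1 (1.15, 0.177) or 2 (1.23, 0.158). Of 7 tested endoderm markers, Cubn rose (1.28, adjusted p = 0.0125) and Sox7 fell (−2.15, adjusted p = 0.000442, and −0.21 with normexp), and the median was −0.03. At an unadjusted p under 0.05 in limma, 2 rose and 2 fell. Sox17 (0.80, adjusted p = 0.114) and Gata4 (−1.85, adjusted p = 0.157), named after their values were seen, did not pass. The other probe of Sox17 changed by 1.86, and with means over probes 2 genes of the list rose. The call of Cubn ended with normexp (0.53, adjusted p = 0.223) and without FBL knock-down sample 1 (1.28, 0.0899) or 2 (1.28, 0.121). Of 9 trophectoderm markers, 0 rose and 2 fell in limma (3 and 2 at an unadjusted p under 0.05) and the median was −0.07. These were Tead4 (−1.29, adjusted p = 0.0116) and Elf5 (−1.63, adjusted p = 0.0222), and Elf5 stood above background on 1 of the 2 FBL knock-down arrays. The call of Tead4 ended without FBL knock-down sample 1 (−1.35, adjusted p = 0.0615) or 2 (−1.22, 0.169). That of Elf5 ended in 8 of 15 alternatives, among them quantile normalization (−1.48, adjusted p = 0.0797), the fit without FBL knock-down sample 2 (−1.03, 0.381), those without either control (−1.75 and −1.51) and normexp, where the sign turned (0.12, 0.89). Of 10 fibroblast markers, 4 were tested and 0 passed in limma (1 fell at an unadjusted p under 0.05), with a median of 0.09, Acta2 at −0.09 and Thy1 at −0.75 (adjusted p = 0.14), while Col3a1, Postn, Fap, Lum, Dcn and Twist2 were too dim to be tested. The summed level of a list, on the log2 scale, was −0.41 and −0.40 in FBL knock-down samples, against −0.46 and −0.64 in controls for streak and mesoderm, and −1.04 and −1.07 against −0.60 and −1.10 for endoderm. It was 5.14 and 5.0 in FBL knock-down samples, against 4.83 and 4.51 in controls for trophectoderm, and 4.48 and 4.50 against 4.99 and 4.39 for fibroblasts. The sums were taken before the log2 step, so the brightest gene weighs most. For trophectoderm that was Tfap2c, at 4.61 and 4.37 in FBL knock-down samples, against 3.79 and 3.55 in controls. For fibroblasts it was Acta2, at 4.26 and 4.26 against 4.64 and 4.06. Tfap2c was named after its values were seen. The part of such cells in the changes of the members was not tested.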

How the data were processed

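RNA of 4 samples was read on 1-colour Agilent arrays, 1 per sample. Per the file headers, spots were quantified with Agilent Feature Extraction 10.7.3.1, and the deposited processed signal is an intensity after background subtraction and spatial detrending. The deposited value table holds log2 values, which for 99.8% of probes on each array equal the log2 processed signal less an array constant (tolerance 0.01), with the 75th percentile at 0 to within 0.001. Neither the labels nor the headers name the tool behind it. The flags of the scanner files, deposited as 0 or 1 scores, gave the filter.

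Groups came from the sample titles. Control spots and 50 probes with every spot flagged on an array were left out. Flagged spots were left out of the background filter and of the alternatives computed from the scanner files. No flag was applied to the deposited values that were fitted or to the single spots of Otx2. Accessions were matched without version to RefSeq genes of GRCm38.p6, which named 24350 of the 41124 probes used. The value table was fitted by probe with limma 3.58.1 in R 4.3.3 (lmFit and eBayes, two-sided), with Benjamini-Hochberg adjustment over all 25077 probes tested, and the fit was tested on simulated data. Named genes are the members, Fbl, up to 2 rising and 2 falling called genes of each list (the 2 brightest where none passed) and the gene nearest to each called member; exceptions are marked. The members and lists were chosen with earlier results of these data known. The plan named the mean spot signal for normexp (offset 50), but the median signal was used, the column the files hold. The number of arrays limits the precision.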

Additional observations from a re-analysis of the deposited data

How the results depend on the processing

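Otx2, Pou3f1 and Sall2 passed in 15 of 16 alternatives, with changes of 1.44 to 1.76, 1.28 to 1.78 and 1.39 to 1.83. No member or Fbl changed sign. The 16 alternatives are not independent checks. With 1 probe per member, both gene-level fits must return the change of the main fit. The processed signal of the scanner files is nearly the same data, and the fits without 1 sample reuse the rest. With no filter on dim probes 0 probes rose and 0 fell in limma (3878 had an unadjusted p under 0.05), so the calls ended for Fbl (−2.41, adjusted p = 0.0997), Otx2 (1.69), Pou3f1 (1.53), Sall2 (1.65), Fgf5 (1.31), Zic2 (−2.21) and Foxd3 (−0.91), with adjusted p of 0.127 to 0.402 for the members. Zic2 and Foxd3 lost their calls with quantile normalization (−2.16 and −0.89) and with the percentile over bright probes (−2.16 and −0.86), and Zic2 with trend and robust (−2.21, adjusted p = 0.382). Fgf5 lost its call with normexp (0.32). With the slide as a block, which equals leaving out FBL knock-down sample 2, 462 probes rose and 224 fell, and Foxd3 (−0.85) and Fgf5 (1.24) did not pass. That fit, normexp, the replicate block and the fit without FBL knock-down sample 1 had infinite prior degrees of freedom, so all probes shared 1 variance.

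The count of probes that fell, 620, was 409 with quantile normalization and 1006 with trend. With trend and robust 1457 rose, against 936, and 1195 fell. Leaving out each sample in turn gave 462 to 3012 rising and 224 to 2370 falling probes, and changes of −1.05 to −0.77 for Foxd3, 1.08 to 1.55 for Fgf5 and −0.97 to −0.10 for Cdh2. Elf5 was at 0.12 with normexp (adjusted p = 0.89), the opposite sign. With the replicate block, 1275 probes rose and 1014 fell, and no call among the members changed; deviations of same-numbered samples correlated at 0.02, so the numbers alone join the samples. The cause of these shifts was not tested. Medians of the lists moved by more than their spread between replicates in 5 of 176 cases. Array position as a random block was not run, since no correlation could be estimated. Signal close to background limits Fgf5, Zic2, Cdh2 and Sox3.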
